A study of Homo sapiens with 4 samples.

Results

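These results concern 10 genes whose products decide how fast messenger RNAs are broken down: ZFP36, ZFP36L1, ZFP36L2, ZC3H12A, RC3H1, RC3H2, ELAVL1, KHSRP, CNOT1 and CNOT6. They were listed by name with the shWNK1 against NS values of the same 4 libraries already known, so that contrast is given for them as a description, without a test. All 10 were found among the 60682 genes of the count table, and all 10 were among the 14864 genes that passed the filter on low counts. They were well measured, with 166 to 8254 counts per gene and library.

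JJN3 is an established multiple myeloma line, and the labels call its cells shWNK1 or NS according to the short hairpin RNA they were transduced with, 2 libraries of total RNA each. Both groups had therefore been transduced, and untransduced cells were not analysed here. The hairpin sequences and the origin of the replicates are not given in the labels, so every p-value reflects how far these libraries differ from one another, possibly for technical reasons alone. Libraries held 16973521 to 20164122 counts. WNK1, the targeted kinase, had 325 and 403 counts under shWNK1 and 4911 and 4148 counts under NS, the direction the labels call for. Both shWNK1 libraries carry the same treatment label, so loss of WNK1 and other effects of the hairpin cannot be separated here. In bulk RNA, fewer cells of a kind and less RNA per cell cannot be told apart. All 8 plasma cell markers were detected (summed level 2223 to 2357 CPM, the count scaled to library size). Single plasma cell markers went both ways: SLAMF7, POU2AF1 and PRDM1 rose (7.77-fold, 1.78-fold and 1.19-fold), SDC1, MZB1, IRF4 and XBP1 fell (2.50-fold, 1.97-fold, 1.18-fold and 1.13-fold), and TNFRSF17 was not called. T and NK cell, myeloid, erythroid and mature B-cell markers summed to 0.0973 to 8.15 CPM, with CD3D, LYZ, HBB and MS4A1 at 0 counts in every library. The B-cell sum was 3.15 and 3.21 CPM in shWNK1 and 8.15 and 6.74 CPM in NS cells, nearly all of it PAX5. Stromal and epithelial markers summed to 120 to 135 CPM, of which EPCAM alone, not called, made 109 to 126 CPM. KRT18 fell 1.40-fold, with 7.80 and 8.27 CPM in shWNK1 and 10.6 and 11.9 CPM in NS libraries. KRT8 had 3 to 22 counts, COL1A1 and DCN had at most 4 counts in any library and COL1A2 had 0. The part of these markers in the results was not tested.

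As background, many short-lived mRNAs carry AU-rich elements in the 3′ untranslated region (3′ UTR), built from overlapping ATTTA words in DNA letters. ZFP36, ZFP36L1 and ZFP36L2 bind such elements through tandem zinc fingers, with TTATTTATT as the preferred site, and recruit the CCR4-NOT complex, which removes the poly(A) tail. KHSRP also promotes decay of AU-rich mRNAs, whereas ELAVL1 (HuR) generally stabilizes them. ZC3H12A (Regnase-1), an endonuclease, and RC3H1 and RC3H2 (Roquin-1 and Roquin-2) act on stem-loops. CNOT1 is the scaffold of CCR4-NOT, and CNOT6 is one of its catalytic deadenylases. In lymphoid cells the ZFP36, Regnase and Roquin proteins restrain cytokine and NF-κB target mRNAs.

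The ZFP36 preferred site is itself present in the transcripts of the family. TTATTTATT was found in the longest annotated 3′ UTR (GENCODE v29) of 5 members, namely once in each of the 3 ZFP36 genes and ELAVL1 and 2 times in RC3H2. The other 5 lacked it. The sites are shown in DNA letters of the transcript strand, 5′ to 3′, with the site in capitals, because this is the element the ZFP36 proteins read. The first 4 lines are members (for RC3H2, 1 of its 2 sites), and the last 2 are mRNAs described further on, CXCL8 (higher in shWNK1 cells) and PIM1 (lower).
ZFP36, chr19:39409196-39409224, hg38, plus strand: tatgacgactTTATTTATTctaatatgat
ZFP36L1, chr14:68788077-68788105, hg38, minus strand: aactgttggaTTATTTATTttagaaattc
ZFP36L2, chr2:43223448-43223476, hg38, minus strand: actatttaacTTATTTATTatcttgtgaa
RC3H2, chr9:122849199-122849227, hg38, minus strand: cttagttaacTTATTTATTtctattttat
CXCL8, chr4:73742664-73742692, hg38, plus strand: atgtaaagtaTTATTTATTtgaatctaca
PIM1, chr6:37174985-37175013, hg38, plus strand: tgttatgtatTTATTTATTtatttatttg
In PIM1 the site occurred 3 times in overlapping register, of which the first is shown. A match in the annotated UTR is a description of the sequence and does not show binding.

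Compared per kilobase of exon (RPKM), the 10 regulators spanned from 3.80 to 90.3 RPKM in NS cells. KHSRP had the highest level at 90.3 ± 4.28 RPKM (mean ± SD, n = 2 libraries in this and later values), followed by ZFP36L2 (59.2 ± 1.18), CNOT1 (35.1 ± 3.05), ELAVL1 (27.6 ± 0.516), CNOT6 (17.3 ± 0.619) and ZFP36 (9.80 ± 1.88 RPKM). RC3H2 (6.27 ± 0.0802), ZFP36L1 (6.26 ± 0.473), RC3H1 (4.48 ± 0.249) and ZC3H12A (3.80 ± 0.923 RPKM) were lowest. The ranges of RC3H2 and ZFP36L1 overlapped in NS cells, as did those of RC3H1 and ZC3H12A. In shWNK1 cells the order was the same except that ZFP36L1, at 21.0 ± 1.01 RPKM, moved from rank 8 to rank 5, above CNOT6 and ZFP36.

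**Figure D1:**
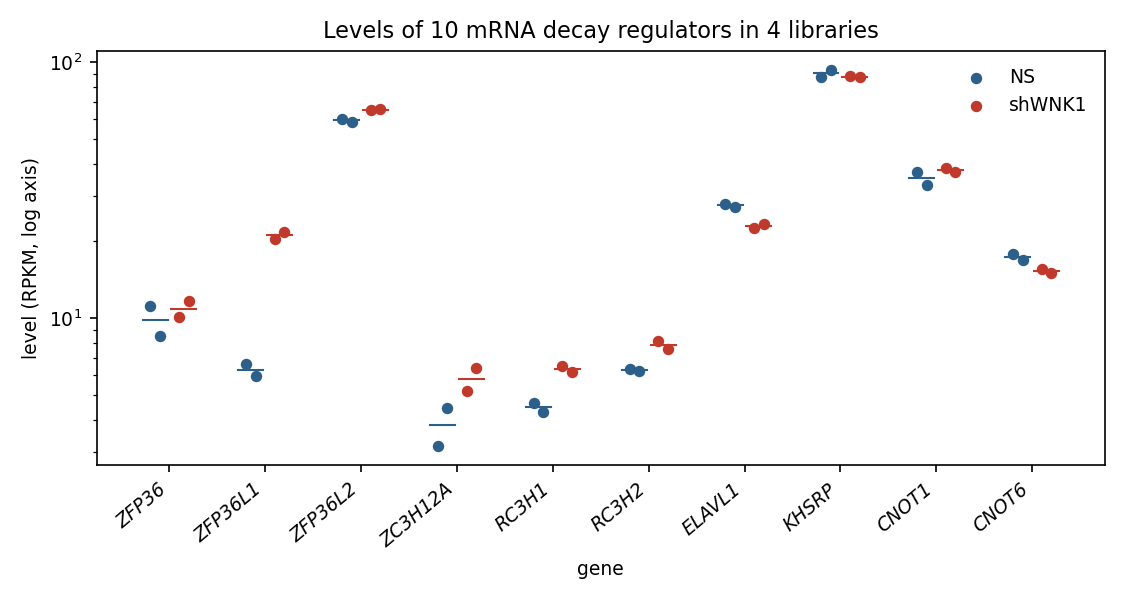
Level of each regulator in RPKM on a log axis, with 1 point per library (NS in blue, shWNK1 in red) and a line at each group mean. ZFP36L1 shows the widest separation, from 5.92 and 6.59 RPKM in NS to 20.3 and 21.7 RPKM in shWNK1 libraries, while the groups of ZFP36, KHSRP and CNOT1 overlap.

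Of the 3 ZFP36 genes, 1 differed widely between the groups. ZFP36L1 (ENSG00000185650.10, chromosome 14, 68787660 to 68796253, minus strand, hg38) had 1827 and 2304 counts under shWNK1 and 580 and 517 counts under NS. Both shWNK1 libraries were far above both NS libraries, at 108 ± 5.19 against 32.3 ± 2.44 CPM, which is 3.36-fold (log2 fold change 1.75, SE 0.086). ZFP36L2 (ENSG00000152518.8, chromosome 2, 43222402 to 43226606, minus strand) was at 239 and 242 CPM in shWNK1 and 222 and 216 CPM in NS libraries (log2 0.14, SE 0.060). Its groups did not overlap, yet the gap was small beside that of ZFP36L1. An opposite-strand gene without a symbol covered 22.4% of the exon bases of ZFP36L2, and since strand was not used in counting, reads there cannot be assigned to one of them.

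ZFP36 (ENSG00000128016.7, chromosome 19, 39406847 to 39409412, plus strand), the founding member also called tristetraprolin, was at 19.9 and 23.1 CPM in shWNK1 and 22.0 and 16.7 CPM in NS libraries. The groups overlapped, and the log2 fold change of 0.15 (SE 0.138) turned to -0.02 without NS replicate 2 and rose to 0.36 without NS replicate 1. The NS libraries thus set the sign for ZFP36, which was not so for ZFP36L1, whose value stayed between 1.68 and 1.83 with any library left out.

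The ZFP36 family as a whole was at a higher level in shWNK1 cells. Its summed level was 95.1 and 98.9 RPKM in shWNK1 and 77.8 and 72.7 RPKM in NS libraries. ZFP36L1 made up 21.4% and 22.0% of that sum in shWNK1 and 8.48% and 8.14% in NS libraries. ZFP36L2 remained the most abundant of the 3 genes in all 4 libraries, with 66.2% to 68.1% of the sum in shWNK1 and 77.2% to 80.2% in NS cells. ZFP36 held 10.6% to 14.3% in the 4 libraries.

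**Figure D2:**
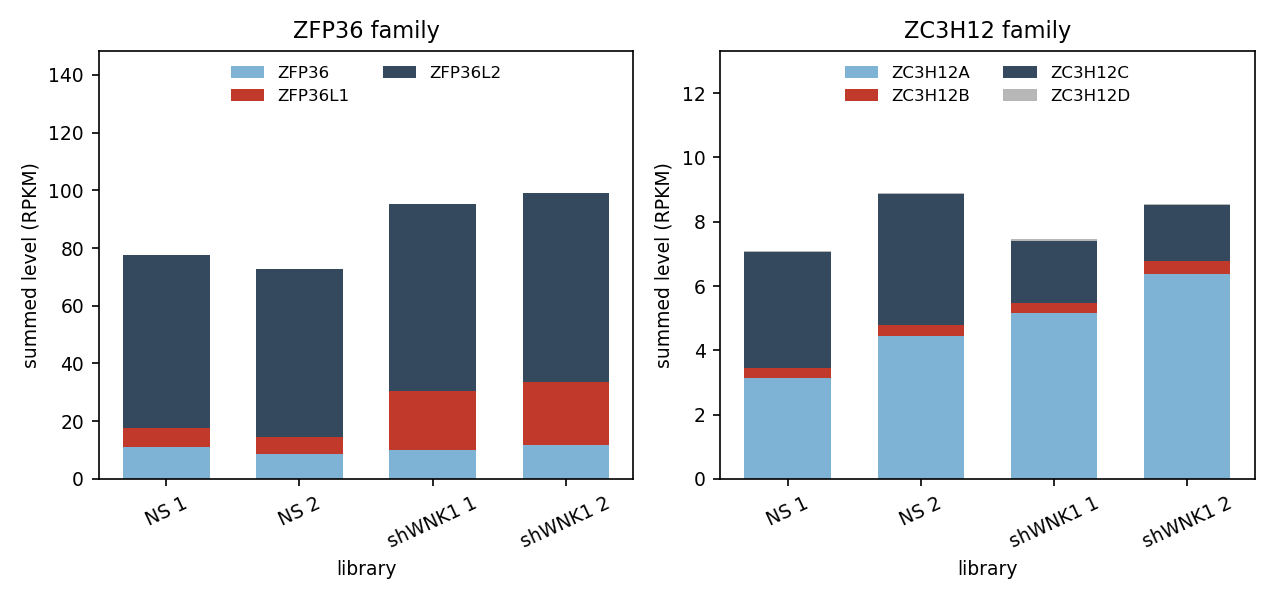
Summed level (RPKM) of the ZFP36 family and of the ZC3H12 family in each library, stacked by gene. The ZFP36L1 segment grows from 8.14% to 8.48% of the family sum in NS to 21.4% to 22.0% in shWNK1 libraries, and in the ZC3H12 family ZC3H12A takes a larger part and ZC3H12C a smaller one.

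The stem-loop factors among the members were all higher in shWNK1 cells, by smaller amounts. RC3H1 (ENSG00000135870.12, chromosome 1, 173931084 to 174022357, minus strand) was at 76.1 and 72.2 CPM in shWNK1 and 54.5 and 50.4 CPM in NS libraries, 1.41-fold higher (log2 0.50, SE 0.083). RC3H2 (ENSG00000056586.16, chromosome 9, 122844556 to 122905359, minus strand) was at 93.9 and 87.8 against 73.2 and 71.9 CPM (log2 0.32, SE 0.076). Neither paralogue's groups overlapped. Together the pair summed to 14.6 and 13.8 RPKM in shWNK1 and 11.0 and 10.5 RPKM in NS libraries, of which RC3H1 made up 40.9% to 44.8%.

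ZC3H12A (ENSG00000163874.11, chromosome 1, 37474580 to 37484377, plus strand) had 279 and 405 counts under shWNK1 and 166 and 233 counts under NS. At 16.0 and 19.7 against 9.73 and 13.8 CPM the groups did not overlap, but each varied widely within itself. The log2 fold change was 0.61 (SE 0.162), with 0.38 without NS replicate 1, 0.88 without NS replicate 2 and 0.44 without shWNK1 replicate 2, and it lay past the threshold described further on in neither the fit without NS replicate 1 nor that without shWNK1 replicate 2. Its paralogue ZC3H12C, which is not one of the 10 genes, fell 2.08-fold from 37.2 ± 2.95 to 17.9 ± 1.37 CPM (edgeR adjusted p = 9.2e-09, log2 fold change -1.06, SE 0.118). ZC3H12A made up 69.5% and 74.7% of the ZC3H12 family sum in shWNK1 and 44.4% and 50.2% in NS libraries, while the sum itself ranged from 7.09 to 8.88 RPKM with the groups overlapping.

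ELAVL1, the stabilizing factor, was lower in shWNK1 cells. ELAVL1 (ENSG00000066044.15, chromosome 19, 7958573 to 8005659, minus strand) was at 157 and 162 CPM in shWNK1 and 195 and 190 CPM in NS libraries, 1.20-fold lower (log2 -0.27, SE 0.062), and the groups did not overlap. KHSRP (ENSG00000088247.17, chromosome 19, 6413348 to 6424794, minus strand) was at 402 and 397 against 398 and 426 CPM, with overlapping groups (log2 -0.05, SE 0.058). The summed ZFP36 family stood at 4.22 and 4.24 times the RPKM of ELAVL1 in shWNK1 and at 2.78 and 2.67 times in NS libraries. Opposite-strand exons covered 7.58% of the exon bases of ELAVL1.

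The CCR4-NOT members differed by at most 1.14-fold. CNOT6 (ENSG00000113300.13, chromosome 5, 180494379 to 180578358, plus strand) was at 102 and 98.1 CPM in shWNK1 and 117 and 111 CPM in NS libraries (log2 -0.19, SE 0.070). CNOT1 (ENSG00000125107.18, chromosome 16, 58519951 to 58629885, minus strand) was at 416 and 402 against 404 and 357 CPM. Its groups overlapped, and its log2 fold change of 0.10 (SE 0.061) became 0.19 or 0.02 when NS replicate 1 or NS replicate 2, respectively, was left out. SETD6 and a gene without a symbol, both on the opposite strand, covered 12.5% of the exon bases of CNOT1. CNOT6 made up 71.6% to 72.8% of the summed level of the CCR4-type pair CNOT6 and CNOT6L in shWNK1 and 75.5% to 75.6% in NS libraries.

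Across the 14864 genes tested, 38.8% were called at an edgeR Benjamini-Hochberg adjusted p under 0.05, 18.5% higher and 20.2% lower in shWNK1 cells. As a description and not a test, 4 of the 10 regulators lay past the same threshold on the higher side (ZFP36L1, RC3H1, RC3H2 and ZC3H12A) and 2 on the lower side (ELAVL1 and CNOT6). The groups did not overlap for 7 of the 10, with shWNK1 above for 5 and below for 2, beside 68.4% of all genes tested, 34.7% above and 33.7% below. Nothing is read from these shares or from the fits with a library left out, since the list was made with this contrast in view. ZFP36L1 and RC3H1 stayed past the threshold whichever library was left out. RC3H2 and ELAVL1 did not without shWNK1 replicate 1, ZC3H12A without shWNK1 replicate 2 or NS replicate 1, and CNOT6 when any one of these 3 libraries was left out. ZFP36, ZFP36L2 and CNOT1 came past the threshold on the higher side without NS replicate 1. The median log2 fold change of the members was 0.15 and that of all genes tested 0.01.

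The 6-base word AGTATC was looked up in the members because earlier work on these counts had found it often in 3′ UTRs of genes lower in shWNK1 cells, so its shares here are no independent support. It occurred 2 times each in RC3H1, RC3H2 and CNOT6 and in no other of the 10. The first match in RC3H1, which was higher in shWNK1 cells, and in CNOT6, which was lower, is shown with the word in capitals.
RC3H1, chr1:173938487-173938514, hg38, minus strand: agaaaattagcAGTATCtgcaagcaatt
CNOT6, chr5:180577632-180577659, hg38, plus strand: tagtgtctaaaAGTATCtagtctttatt
Of 2790 tested genes with the word, 33.6% were lower and 16.2% higher, against 20.5% and 22.4% of the 9096 without it. Median 3′ UTR lengths were 3084 bases with the word and 1050 bases without it. Of lower genes named outside the members, ZC3H12C held it 5 times, SMG1 4 times and LARP1, TENT4B and XRN1 2 times each. LSM1, MCL1 and TFRC, also lower, held it 1 time each. Of higher genes, MAP2K6 held it 3 times, HBS1L 2 times and MALT1, BTG1, BTG2, PAN3 and PUM2 1 time each. FUBP1, HNRNPD and MYC, which were lower, and CXCL8, IL10 and CDKN1A, which were higher, lacked it. The part of the word in these differences was not tested. Among the members, ZFP36L1, higher in shWNK1 cells, and ELAVL1, lower, both lacked the word.

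The other genes of the pathway were grouped by function. The counts of this and the later lists stand beside 18.5% higher and 20.2% lower among all genes tested. No list was tested against these shares. Among the 15 tested AU-rich element binding proteins outside the 10 members, 9 fell, 1 rose and 5 were not called, with a median log2 fold change of -0.18. FUBP1, a KHSRP relative, fell 1.66-fold (edgeR adjusted p = 1.0e-11, log2 fold change -0.73, SE 0.059). HNRNPD (AUF1), which binds AU-rich mRNAs and promotes decay of many, fell from 400 ± 49.3 to 247 ± 6.19 CPM (edgeR adjusted p = 1.4e-09, log2 fold change -0.70, SE 0.067). HNRNPAB fell as well, by 0.66 on the log2 scale. The 1 rise was that of the Pumilio protein PUM2 (log2 0.26), a call that ended without shWNK1 replicate 1 (edgeR adjusted p = 0.0521). With edgeR there were 0 rises without that library (1 at an unadjusted p under 0.05) and 3 without NS replicate 1.

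Stem-loop and UPF1-linked decay factors went both ways. Of 11 tested outside the members, 4 rose, 3 fell and 4 were not called, with a median of 0.07. MALT1, the protease that cleaves ZC3H12A and Roquin proteins, rose from 64.9 ± 3.76 to 91.3 ± 0.304 CPM (edgeR adjusted p = 4.9e-06, log2 fold change 0.49, SE 0.078). SMG6, an endonuclease of nonsense-mediated decay, rose 1.60-fold (log2 0.68). SMG1, the kinase that phosphorylates UPF1, fell by 0.36 on the log2 scale, beside the fall of ZC3H12C. SMG5, the list member of highest level, was at 66.1 ± 2.48 and 67.9 ± 0.0064 RPKM (edgeR adjusted p = 0.66). Rises numbered 2 without either shWNK1 library or without NS replicate 2.

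CCR4-NOT and the adaptors that bring its deadenylases to mRNAs held both rises and falls. Of 14 tested outside CNOT1 and CNOT6, 4 rose, 2 fell and 8 were not called, with a median of 0.07. BTG2, an antiproliferative adaptor of the CAF1-type deadenylases, rose from 60.6 ± 1.12 to 113 ± 1.01 CPM (edgeR adjusted p = 1.6e-11, log2 fold change 0.90, SE 0.075), and its relative BTG1 rose 1.57-fold (log2 0.65). TOB1, another adaptor of this family, fell by 0.39 on the log2 scale, a call that ended without shWNK1 replicate 1 (edgeR adjusted p = 0.379) or NS replicate 1 (0.0544). BTG2 made up 53.4% to 56.3% of the summed level of BTG1, BTG2, TOB1 and TOB2 in shWNK1 and 37.3% to 38.5% in NS libraries.

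Among the catalytic subunits, CNOT8 rose 1.43-fold (edgeR adjusted p = 6.6e-05, log2 fold change 0.52, SE 0.098). Its paralogue CNOT7 was at 92.6 ± 2.75 and 88.5 ± 7.21 CPM (log2 0.06, edgeR adjusted p = 0.542), and CNOT6L at 54.9 ± 0.785 and 52.5 ± 1.91 CPM (log2 0.07, edgeR adjusted p = 0.592). The fall of CNOT10 (log2 -0.26) was lost without shWNK1 replicate 2 (edgeR adjusted p = 0.477) or NS replicate 2 (0.136). In this list only 1 fall was called when any single library other than NS replicate 2 was left out. CNOT7, CNOT6L and TOB2 were chosen after their values were seen.

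Poly(A) tail factors outside CCR4-NOT included 8 rises, 5 falls and 9 genes not called among 22 tested, with a median of 0.04. PAN3, which anchors the PAN2 deadenylase to the tail, rose from 34.8 ± 1.89 to 57.2 ± 3.24 CPM (edgeR adjusted p = 2.1e-07, log2 fold change 0.71, SE 0.094). TUT7, which adds uridines to shortened tails, rose by 0.49 on the log2 scale. LARP1, which binds and protects mRNAs of ribosomal proteins, fell from 654 ± 7.64 to 379 ± 15.8 CPM (edgeR adjusted p = 8.1e-13, log2 fold change -0.78, SE 0.057). PABPC1, the main cytoplasmic poly(A) binding protein and the list member of highest level, was at 789 ± 1.98 RPKM in shWNK1 and 780 ± 42.1 RPKM in NS cells (edgeR adjusted p = 0.852). TENT4B, a poly(A) polymerase, fell 2.01-fold (log2 -1.01). Leaving out shWNK1 replicate 1 brought the rises to 4 and leaving out replicate 2 to 5, with 3 falls in each case.

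Downstream of deadenylation, decapping and 5′ to 3′ decay genes split between 5 rises and 8 falls, with 8 of 21 not called and a median of -0.08. DDX6, the helicase that links CCR4-NOT to decapping, rose 1.33-fold (edgeR adjusted p = 1.6e-06, log2 fold change 0.41, SE 0.060). LSM1, of the ring that binds deadenylated ends, fell from 34.5 ± 2.52 to 20.9 ± 0.738 CPM (edgeR adjusted p = 5.7e-06, log2 fold change -0.72, SE 0.115). The 5′ to 3′ exonuclease XRN1 fell by 0.41 on the log2 scale. There were 2 rises without either shWNK1 library and 5 falls without shWNK1 replicate 2. The exosome and SKI complex, which degrade from the 3′ end, held 7 falls, 2 rises and 10 genes not called among 19 (median -0.14), with falls of the core subunits EXOSC5 (edgeR adjusted p = 1.3e-04, log2 fold change -0.54, SE 0.107) and EXOSC4 (-0.49). The rises were those of HBS1L (log2 0.22) and ZFC3H1 (0.26). With edgeR its rises numbered 0 when either shWNK1 library was left out (1 without replicate 1 and 2 without replicate 2 at an unadjusted p under 0.05), and its falls 3 and 4.

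**Figure D3:**
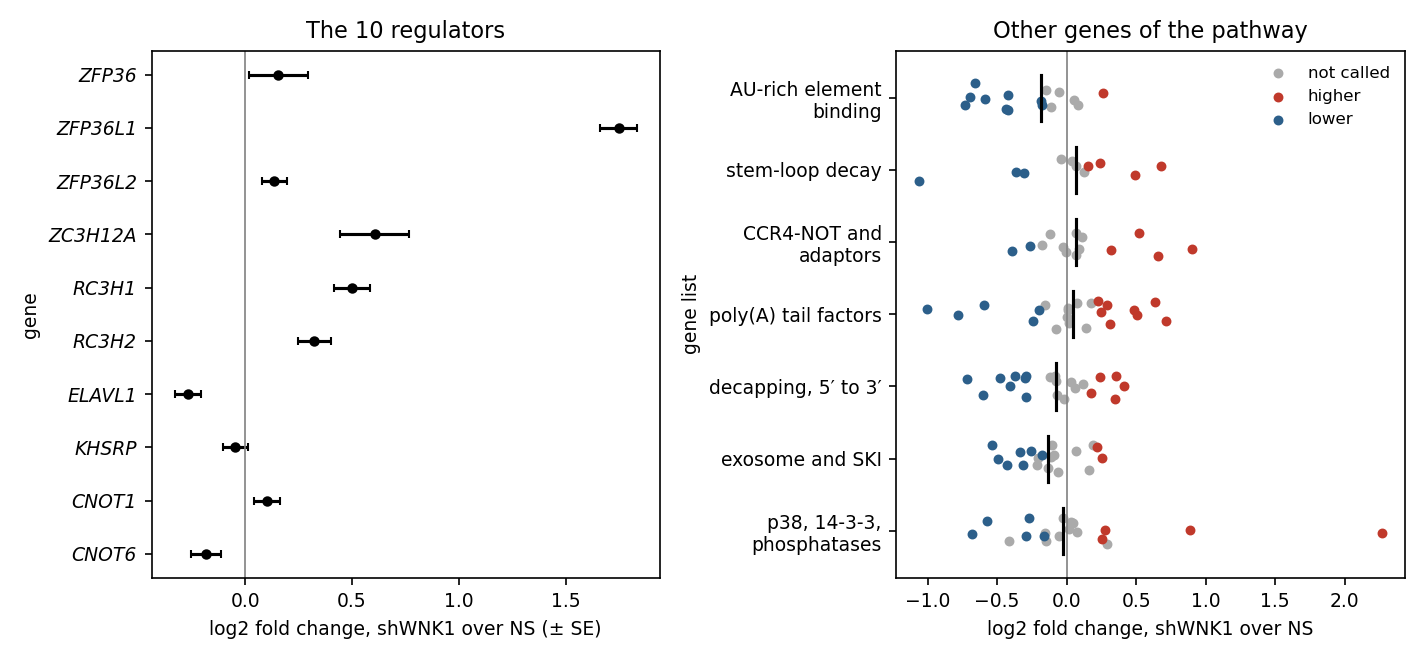
Left, log2 fold change of shWNK1 over NS for the 10 regulators with its SE. Right, the same for the other tested genes of 7 functional lists (the p38 list among them), 1 point per gene, coloured by call, with a black line at each median. ZFP36L1 lies at 1.75, and the AU-rich element binding list has most points left of 0.

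Turning from the regulators to mRNAs known for AU-rich elements, 27 of 40 such genes outside the ZFP36 family were high enough to test. Of these 10 rose, 5 fell and 12 were not called, with a median log2 fold change of 0.13 against 0.01 for all genes tested. The chemokine CXCL8 had the highest fold of the list at 7.83 (edgeR adjusted p = 3.6e-18, log2 fold change 2.97, SE 0.133). IL10, an anti-inflammatory cytokine, rose from 22.4 ± 2.96 to 61.7 ± 4.55 CPM (edgeR adjusted p = 8.1e-13, log2 fold change 1.46, SE 0.104), and CDKN1A, which encodes the cyclin-dependent kinase inhibitor p21, rose 3.41-fold. MYC (log2 -0.69), the kinase PIM1 (-0.67, SE 0.086, edgeR adjusted p = 1.6e-07) and the survival factor MCL1 (-0.45) fell. Falls numbered 3 without shWNK1 replicate 2.

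Several classic ZFP36 target mRNAs had no count here, with TNF, IL6, IL2, IL3 and CXCL2 at 0 in all 4 libraries. A count of 0 allows a level of up to 0.146 to 0.177 CPM (3 counts, counting error only). Within the list, 14 tested genes had TTATTTATT in the 3′ UTR, of which 6 rose and 2 fell, and 13 lacked it, of which 4 rose and 3 fell. Genes with the site thus included both CXCL8 and PIM1.

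**Figure D4:**
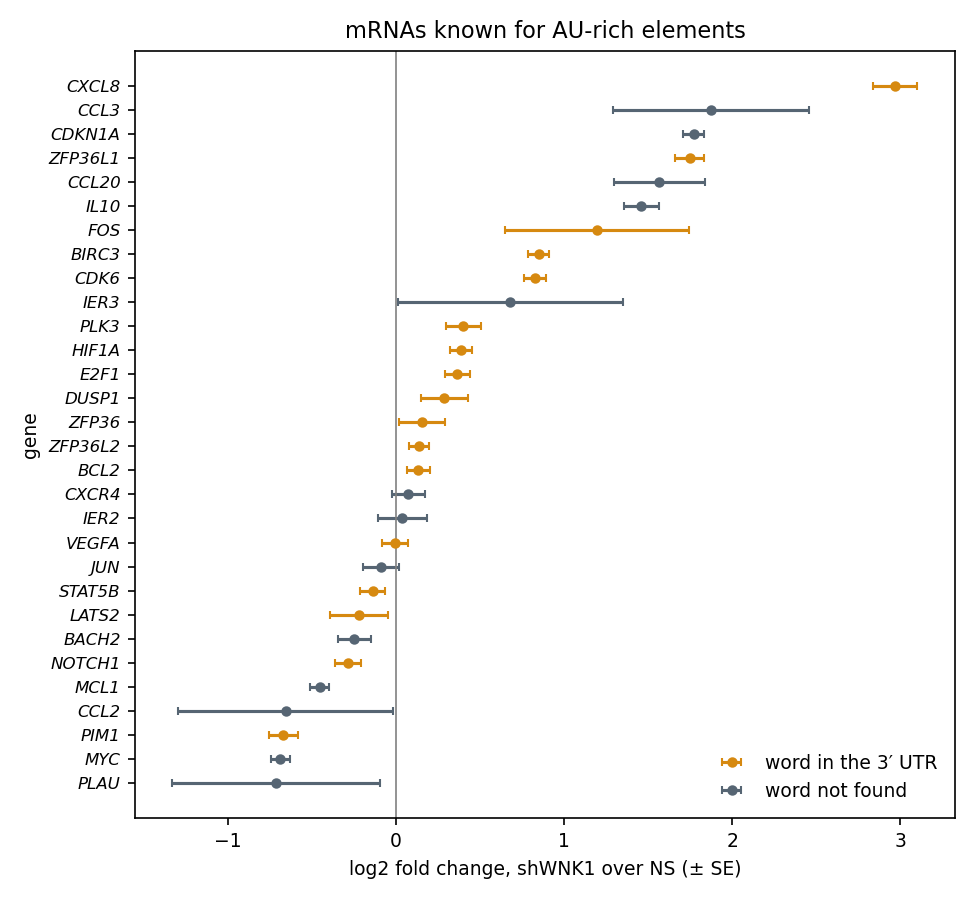
Log2 fold change with SE for the 30 tested mRNAs known for AU-rich elements, the 3 ZFP36 genes included, ordered by value and coloured by whether TTATTTATT was found in the longest annotated 3′ UTR. CXCL8 lies highest at 2.97, and genes with the site lie on both sides of 0.

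The same site was then searched in the longest annotated 3′ UTR of all 11886 tested genes that had one. It was present in 1126 genes, of which 26.8% were higher and 20.8% lower in shWNK1 cells, with a median log2 fold change of 0.07. Of the 10760 genes without it, 20.3% were higher and 23.9% lower, with a median of -0.01. Median 3′ UTR length was 3155 bases with the site and 1276 bases without it. With either shWNK1 library left out, fewer genes were called over all genes tested, and fewer of those with the site. The shares of genes without it were not computed for those fits, so the groups were not compared there. By number of sites, 27.8% of genes with 1 site, 23.6% of those with 2 and 24.1% of the 87 genes with 3 or more were higher.

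Within 3 classes of equal size by 3′ UTR length, the contrast was widest among short UTRs of at most 818 bases. There, 26.4% of 91 genes with the site were higher and 9.89% lower, against 15.3% and 24.9% of 3871 without it. In the middle class 23.8% and 24.2% of genes with the site were higher and lower, beside 21.7% and 22.9% without it, so the groups lay close. In the long class the values were 28.0% and 20.8% with the site and 24.8% and 23.9% without it. Among genes lacking AGTATC, 31.1% of 657 genes with the site were higher and 15.2% lower, against 21.7% and 21.0% of 8439 genes without it. Among genes holding AGTATC, falls outnumbered rises in both groups. There, 20.9% of 469 genes with the site were higher and 28.6% lower, against 15.3% and 34.6% of 2321 genes without it. These shares describe genes, which are not replicates, and carry no test. The parts of UTR length and of AGTATC in them were not tested beyond these splits, which were added after the data were seen.

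**Figure D5:**
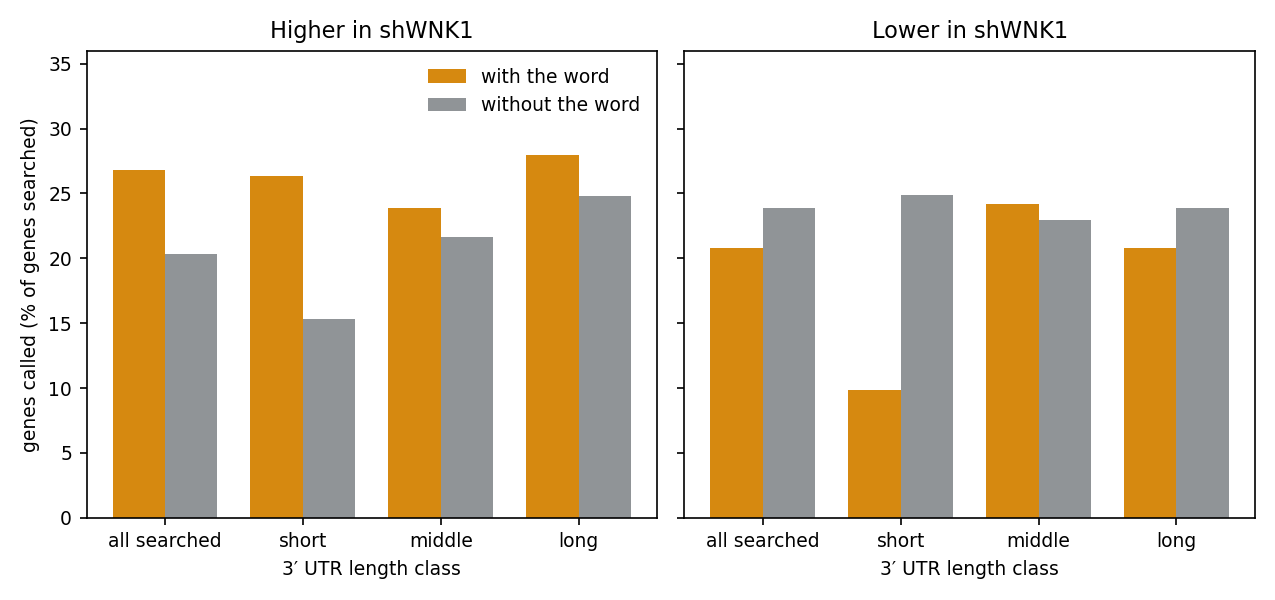
Percent of searched genes called higher (left) and lower (right) in shWNK1 cells, with and without TTATTTATT in the 3′ UTR, for all genes searched and in 3 classes of UTR length. In the short class 26.4% of genes with the site were higher and 9.89% lower, against 15.3% and 24.9% without it.

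The mRNAs known as stem-loop targets of ZC3H12A and RC3H1 were mostly too low to test. Of 20 outside the members, 8 were tested, 1 rose, 1 fell and 6 were not called. NFKBIZ, an NF-κB cofactor, rose from 4.88 ± 1.39 to 10.2 ± 0.286 CPM (edgeR adjusted p = 1.2e-04, log2 fold change 1.06, SE 0.210). TFRC, the transferrin receptor, fell from 620 ± 23.9 to 498 ± 4.75 CPM (edgeR adjusted p = 3.0e-05, log2 fold change -0.32, SE 0.057). The list held 2 falls without NS replicate 1.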

How the data were processed

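RNA-seq libraries of JJN3 cells, 2 per group, gave the levels. The authors deposited raw counts per gene, which featureCounts v2.0.0 made from GENCODE v34 exons without use of strand and with a mapping quality of at least 20, per the file headers. The submitters' processing notes name Trimmomatic, STAR and hg38. 1 gene broken over 3 lines and 45 Y copies of pseudoautosomal genes were left out, and 60369 of 60682 identifiers had a symbol.

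Counts were filtered with filterByExpr, scaled by TMM and tested two-sided with edgeR 4.0.16 (robust quasi-likelihood) in R 4.3.3, with Benjamini-Hochberg adjustment over all 14864 genes. The SE is the log2 fold change divided by the root of the F statistic. CPM and RPKM use TMM-scaled library sizes, and RPKM the exon length of the table. In counts simulated over 14864 genes, the test recovered 29 of 83 genes changed 1.5-fold, 41 of 58 changed 2-fold and 53 of 59 changed 4-fold. The simulation gave every gene the same fixed spread and changed few genes, whereas 38.8% were called in the data. Its shares therefore do not measure how many real changes of these sizes were found or missed.

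Sites were searched on the transcript strand of GENCODE v29 3′ UTRs, on hg38. Members and lists were chosen with earlier results of these data known. The rule named WNK1, the 10 members, from each list up to 3 rising and 3 falling called genes by smallest p, and list genes of highest level that were not called. Other genes named (CNOT7, CNOT6L, TOB2, SETD6, the cytokines at 0 and the markers) were chosen after their values were seen. Alternatives were DESeq2 1.42.0, limma-voom (limma 3.58.1), RLE and upper-quartile factors, other low-count filters, a replicate block, immunoglobulin and mitochondrial genes removed, each library left out, and other AU-rich words.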

Additional observations from a re-analysis of the deposited data

How the results depend on the processing

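In all 12 alternatives run, ZFP36L1, RC3H1 and RC3H2 kept a positive and ELAVL1 a negative fold change, though RC3H2 and ELAVL1 missed the threshold without shWNK1 replicate 1. Over 57 named genes and their alternatives, 647 of 683 values were stable, 29 lost the call, 7 moved and 0 changed direction while called; members were judged by whether the fold change moved by less than its SE, not by the call. The lower members, 2 as reported, numbered 1 with DESeq2, upper-quartile factors or the replicate block. With DESeq2, rises numbered 2 for stem-loop factors, 0 for the exosome list (2 at an unadjusted p under 0.05) and 2 for the p38 list, and falls 0 for CCR4-NOT (2 unadjusted), which had 1 fall with upper-quartile factors or the block. Genes with TTATTTATT were higher and lower in 20.5% and 17.8% with DESeq2, in 21.2% and 17.1% without a filter and in 23.1% and 24.7% for at least 3 ATTTA words. The share higher was 30.9% with upper-quartile factors. It was 23.8% (24.2% lower) in middle UTRs and 31.1% (15.2% lower) without AGTATC, against 20.9% (28.6% lower) with AGTATC. In short UTRs 9.89% were lower, and all these splits were chosen after seeing the data. Over all genes tested, fewer were called higher and fewer lower with DESeq2 or without a filter. With upper-quartile factors more were called higher. Shares of genes without the site are not given for DESeq2, upper-quartile factors or the fit without a filter. Genes with and without the site were therefore not compared under those settings. The cause of the shifts in these shares was not tested.

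With 1 library left out, 1632 to 2778 genes were higher and 1964 to 3024 lower, and members 3 to 6 and 0 to 2. Rises and falls numbered 0 to 3 and 6 to 10 for AU-rich binding proteins, 2 to 4 and 2 to 3 for stem-loop factors, 3 to 4 and 1 to 2 for CCR4-NOT, 4 to 9 and 3 to 5 for poly(A) factors, 2 to 5 and 5 to 10 for decapping, 0 to 2 and 3 to 7 for the exosome, 1 to 3 and 3 to 6 for the p38 list, 8 to 12 and 3 to 5 for AU-rich mRNAs, and 1 to 1 and 1 to 2 for stem-loop mRNAs. Genes with TTATTTATT were higher in 16.9% to 28.1% and lower in 14.3% to 21.2%. The shares of genes without the site were not computed for these fits. With 1 library in an arm, its spread is assumed to be that of the other arm. Same-numbered libraries share the first letter of their column names (A or B). Their deviations were not correlated (r = -0.00469 across 14864 genes, which are not independent). That value cannot show whether the libraries were prepared in pairs. With the replicate block the genes called higher numbered 2539 and the genes called lower 2804.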

Other observations

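Genes that act on the ZFP36 proteins themselves were measured as a further group. Of 19 tested genes for p38 kinases, MK2, 14-3-3 proteins and phosphatases, 5 fell, 4 rose and 10 were not called, with a median log2 fold change of -0.02. MAPKAPK2, which encodes the kinase MK2 that phosphorylates ZFP36 proteins, fell from 94.6 ± 7.13 to 63.5 ± 3.37 CPM (edgeR adjusted p = 5.5e-07, log2 fold change -0.58, SE 0.080). Of the p38 activators, MAP2K3 fell by 0.29 on the log2 scale, while MAP2K6 rose, from 5 and 3 counts to 29 and 14 (edgeR adjusted p = 0.0167). That call ended without shWNK1 replicate 1 (edgeR adjusted p = 0.454) or NS replicate 2 (0.0908). MAPK11, a p38 kinase, rose 1.85-fold (edgeR adjusted p = 0.00369), and 0.0839 was its adjusted p without shWNK1 replicate 2. Among 14-3-3 genes, whose proteins bind phosphorylated ZFP36 proteins, YWHAQ fell 1.60-fold (edgeR adjusted p = 2.1e-11, log2 fold change -0.68, SE 0.057) and YWHAZ rose by 0.26 on the log2 scale (0.24 and edgeR adjusted p = 0.0578 without shWNK1 replicate 1). YWHAG, the list member of highest level, was at 271 ± 3.01 RPKM in shWNK1 and 257 ± 6.08 RPKM in NS cells (edgeR adjusted p = 0.316). Rises numbered 1 and 2, and falls 3 and 3, without shWNK1 replicate 1 and 2.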
